A study of Homo sapiens with 24 samples.

Results

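The genes described here encode the ligands, receptors and latency proteins of the TGFβ pathway: TGFB1, TGFB2 and TGFB3 (ligands), TGFBR1, TGFBR2 and ACVRL1 (signalling receptors), TGFBR3 and ENG (co-receptors), and LTBP1 and LTBP2 (latent TGFβ binding proteins). They were chosen by name, as all non-control probes whose accession on the array belongs to these 10 genes, which gave 11 probes of 58201 on the array and 10 of 31204 named genes. LTBP1 had 2 probes and the other genes 1 each. The question was which of 2 liver cancer lines expresses the genes to make and to sense its own TGFβ, and how those genes responded to added ligand and to a receptor inhibitor.

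PLC/PRF/5 and SNU-449 are established human hepatocellular carcinoma lines. Each line was serum-starved overnight and then grown for 16 h in 4 ways: without addition (control), with 1 ng/mL TGFβ1, with 10 µM galunisertib (LY2157299), or with the combination of both. Galunisertib is a small molecule that blocks the kinase of the type I receptor encoded by TGFBR1. The paper states that it also inhibits type I receptors for activin and nodal, whose part it does not exclude. With 3 separate cultures per group (n = 3) there were 24 single-colour Agilent arrays. Replicates 1 to 3 of every group lay on slides 1 to 3, with 8 arrays a slide, and every group held the same position on all 3 slides. TGFβ1 arrays were in the second row, PLC/PRF/5 in columns 1 and 2, SNU-449 in columns 3 and 4, and galunisertib in columns 2 and 4. Position on the slide therefore cannot be told apart from line, TGFβ1 or galunisertib. Each line stands for itself, and no group carried a genetic change made for the experiment.

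TGFβ is secreted in a latent form, in which the mature dimer stays bound to its own propeptide. Latent TGFβ binding proteins tie that complex to the extracellular matrix, from which integrins, thrombospondin and proteases can release the active ligand. Active TGFβ binds the type II receptor TGFBR2, which phosphorylates the type I receptor TGFBR1, which in turn phosphorylates SMAD2 and SMAD3 so that they enter the nucleus with SMAD4. In the liver the pathway is known for its part in fibrosis, in the restraint of hepatocyte growth, and in the change of epithelial tumour cells towards a mesenchymal form.

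Levels are given as log2 of a probe's signal over the 75th percentile of its array, so that 0 is a signal at that percentile. Signals under 5.70% of the percentile were set to that floor, which is -4.13 on the log2 scale. A probe was taken as measured on an array where the scanner software marked it well above background, and levels of different probes were not set against each other. Differences were tested with limma across all named genes of a fit (17902 over both lines, 16684 in PLC/PRF/5, 16101 in SNU-449), with Benjamini-Hochberg adjustment over all of them and an adjusted p limit of 0.05. The probes of TGFB1, TGFB2, TGFB3, TGFBR1 and TGFBR2 were well above background on all 24 arrays. LTBP2 was well above background on 12 of 12 SNU-449 arrays and 1 of 12 PLC/PRF/5 arrays, TGFBR3 on 12 PLC/PRF/5 and 6 SNU-449 arrays, and LTBP1 on 12 and 10. ENG was well above background on 1 array and ACVRL1 on none, so neither was tested.

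The 7 hepatocyte markers checked were well above background on all PLC/PRF/5 arrays and 4 of the 7 on all SNU-449 arrays. In control cells all 7 were higher in PLC/PRF/5, by a median of 7.49 on the log2 scale. So were all 4 epithelial markers, and of 4 mesenchymal markers 3 were higher in SNU-449 and FN1 in PLC/PRF/5. Over all genes 33.9% were higher in PLC/PRF/5 and 34.5% in SNU-449. Well above background on no array of either line were 3 of 5 endothelial markers. Of the other endothelial markers VWF was well above background on all 24 arrays and CDH5 on 8 PLC/PRF/5 and 5 SNU-449 arrays, and of 3 leukocyte markers CD14 was on all 24, PTPRC on 12 and 11, and CD3E on 4 and 0; the part of such signals in the results was not tested. As a check of the treatments, genes known to respond to TGFβ were read, of which 9 could be tested in each line. After TGFβ1, 8 of 9 were higher in SNU-449 and 5 of 9 in PLC/PRF/5, where 1 was lower. Over all genes 5.62% and 6.31% were higher, respectively, and 13.5% passed in PLC/PRF/5 in either direction. Galunisertib alone lowered 7 of 9 in SNU-449 and 2 of 9 in PLC/PRF/5, where 3 rose. Over all genes 2.03% were lower in SNU-449, and 5.39% passed in PLC/PRF/5 in either direction.

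The promoters of 3 genes are shown because they belong to the ligand that moved with treatment, the ligand that differed most in size between the lines, and the latency family gene that moved most in SNU-449. Each is the stretch of 250 bases directly before the annotated start in RefSeq (build GRCh38.p14), written 5′ to 3′ on the strand of the gene. Capitals mark matches, on either strand, to the SMAD box CAGAC, to 2 CG-rich SMAD elements (GGCGC, then GGCCG), to the AP-1 element TGANTCA and to the TATA box core TATAAA; neighbouring matches may overlap. TGFB1 lies on the minus strand at chr19:41353923-41354172, TGFB2 on the plus strand at chr1:218345086-218345335, and LTBP2 on the minus strand at chr14:74612238-74612487.
TGFB1: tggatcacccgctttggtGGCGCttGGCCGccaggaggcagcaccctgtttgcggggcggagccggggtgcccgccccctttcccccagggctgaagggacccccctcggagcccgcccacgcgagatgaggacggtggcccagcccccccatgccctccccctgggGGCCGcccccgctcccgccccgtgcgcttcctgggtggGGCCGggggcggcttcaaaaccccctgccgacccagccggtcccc
TGFB2: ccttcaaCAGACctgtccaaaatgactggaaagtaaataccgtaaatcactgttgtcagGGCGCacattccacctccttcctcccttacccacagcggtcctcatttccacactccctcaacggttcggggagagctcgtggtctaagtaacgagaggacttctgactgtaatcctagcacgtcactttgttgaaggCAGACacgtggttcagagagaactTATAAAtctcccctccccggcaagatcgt
LTBP2: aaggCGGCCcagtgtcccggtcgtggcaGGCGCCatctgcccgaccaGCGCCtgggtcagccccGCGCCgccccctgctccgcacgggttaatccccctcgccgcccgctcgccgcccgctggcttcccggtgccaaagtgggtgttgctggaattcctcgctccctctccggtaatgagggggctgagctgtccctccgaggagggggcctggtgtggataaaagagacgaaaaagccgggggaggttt

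TGFB2 held 2 matches to the SMAD box, 1 to the first CG-rich element and 1 to the TATA core, which lies just before its start. TGFB1 held 1 match to the first and 3 to the second CG-rich element, and LTBP2 held 4 and 1, and neither held the SMAD box, the AP-1 element or the TATA core. Of 35116 RefSeq promoters taken in the same way, 38.0% held the SMAD box, 44.5% the first and 44.7% the second CG-rich element, 6.57% the AP-1 element, and 3763 promoters the TATA core, so the SMAD matches are common in windows of this length. The share of G and C was 76.8% for TGFB1, 50.4% for TGFB2 and 68.8% for LTBP2, against a median of 58.0% over all promoters. The AP-1 element was in none of the 20 windows listed for 9 of the 10 genes.

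In untreated cells every member that could be tested passed in the comparison of the lines. A test needed a probe well above background throughout at least 1 group, which LTBP2 met only in SNU-449. With only probes measured on every array 5 members passed, and LTBP1, LTBP2 and TGFBR3 were not tested. The calls of TGFB1, TGFBR2 and TGFB3 did not hold under all alternatives, and that of TGFB3 rests on a single array. SNU-449 was higher in TGFB1, TGFB2, TGFBR1 and LTBP2, and PLC/PRF/5 was higher in TGFB3, TGFBR2, TGFBR3 and LTBP1 (8 of 8 tested genes passed, 4 in each direction). The lines differ widely, and 68.4% of all tested genes passed in this comparison (33.9% higher in PLC/PRF/5, 34.5% lower), so the count alone does not set these genes apart. Of the passing genes 49.5% were higher in PLC/PRF/5, and 33.1% with arrays scaled to their median. Past the stricter limits of a fold above 2 and an unadjusted P under 0.001, which 34.3% of all genes passed, there were 4 members: TGFB2, TGFBR3, LTBP1 and LTBP2. The median difference of the 8 members was -0.04 on the log2 scale, against 0.06 over all genes.

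TGFB2, a ligand that needs a co-receptor for efficient binding, had the clearest ligand difference. Its level in control cells was -2.64, -2.55 and -2.30 in PLC/PRF/5 and 2.64, 2.73 and 2.86 in SNU-449. Over all treatments the 12 PLC/PRF/5 arrays lay between -2.64 and -1.88 and the 12 SNU-449 arrays between 2.60 and 2.96, without overlap. The difference, PLC/PRF/5 minus SNU-449, was -5.24 ± 0.14 (SE) on the log2 scale, or 37.9-fold (limma adjusted p = 2.93e-17). Within slides 1 to 3 it was -5.29, -5.28 and -5.17.

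TGFB1, the most widely expressed ligand, stood at 0.83, 0.16 and 0.81 in PLC/PRF/5 control cells and at 1.62, 1.58 and 1.62 in SNU-449 control cells. All SNU-449 values were above all PLC/PRF/5 values, and the second PLC/PRF/5 culture was the lowest. The difference was -1.01 ± 0.28 (SE), or 2.01-fold in favour of SNU-449 (adjusted p = 0.00379 by limma). Without the arrays of replicate 2 it was -0.80 and did not pass (adjusted p = 0.124).

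TGFB3 was dim in both lines, at -0.90, -2.41 and -2.67 in PLC/PRF/5 and at -2.80 to -2.66 in SNU-449 control cells. The first PLC/PRF/5 culture was alone at its level, and the groups overlapped. The difference of 0.74 ± 0.30 (SE) passed (limma adjusted p = 0.0379) and was 0.20 without that array (adjusted p = 0.389), so it rests on a single array. The call was lost in 10 of 17 alternatives.

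**Figure D1:**
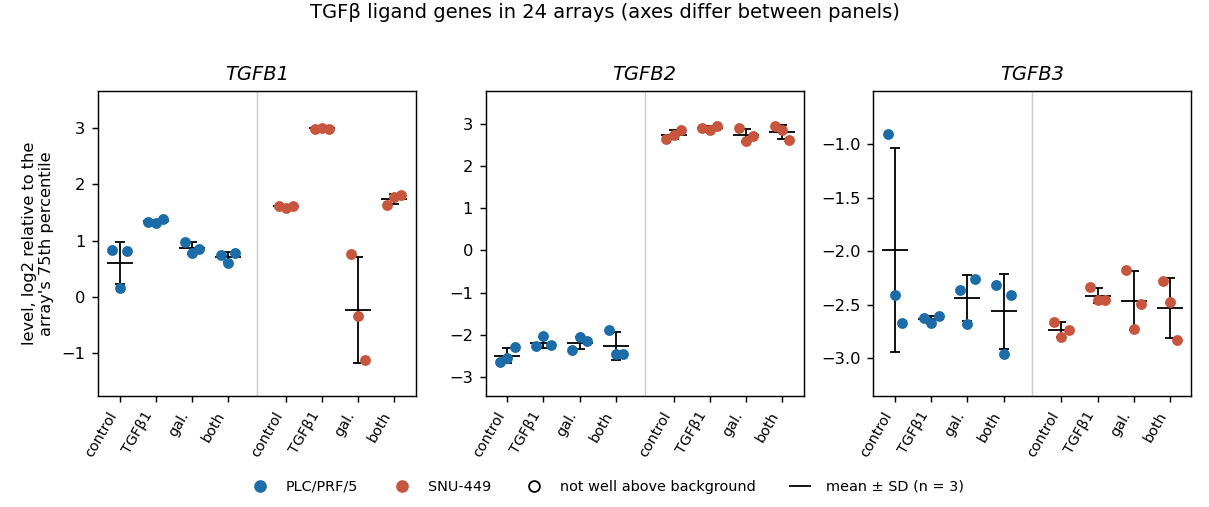
Levels of TGFB1, TGFB2 and TGFB3 on each of the 24 arrays (vertical axis, log2 relative to the array's 75th percentile; a separate scale in each panel) by line and treatment; points are cultures, and bars give the mean ± SD of 3. TGFB2 separates the lines in every treatment, TGFB1 is highest in SNU-449 with TGFβ1 (2.97 to 3.01) and most spread in SNU-449 with galunisertib (-1.12 to 0.75), and TGFB3 has 1 high PLC/PRF/5 control culture at -0.90.

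TGFBR2, the type II receptor that binds the ligand first, was bright in both lines, at 4.68, 5.02 and 5.06 in PLC/PRF/5 and 4.13, 4.37 and 4.28 in SNU-449 control cells. It was 1.58-fold higher in PLC/PRF/5 (0.66 ± 0.15 on the log2 scale, limma adjusted p = 0.000552), and the groups did not overlap. The call was lost with arrays scaled to their median and without scaling; the first of these moved the median of all genes in this comparison from 0.06 to -0.28.

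TGFBR1, the type I receptor and a target of galunisertib, ran the other way. Control values were -2.00, -2.11 and -1.93 in PLC/PRF/5 and -1.36, -1.19 and -1.29 in SNU-449, again without overlap. The difference was -0.73 ± 0.12 (SE), or 1.66-fold in favour of SNU-449 (adjusted p = 1.38e-05 by limma). ACVRL1, the type I receptor best known from endothelial cells, was at the floor on all 24 arrays.

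TGFBR3, or betaglycan, the co-receptor that presents TGFβ2 to the signalling receptors, was far higher in PLC/PRF/5. Its level was 1.25, 1.13 and 1.11 in PLC/PRF/5 control cells and -4.07, -3.03 and -3.23 in SNU-449 control cells, where only the second array was well above background. The measured means differed by 4.61 ± 0.38 (SE; limma adjusted p = 1.58e-09). Since 2 of the 3 SNU-449 values lie below detection, the level in PLC/PRF/5 is given as at least 23.6-fold higher, a bound that sets the mean of the measured group against the weakest signal that counted as well above background on each array of the other, or the probe's own signal where that was higher. TGFB2 and TGFBR3 thus lay on opposite sides: the line with the high ligand signal had the co-receptor at the edge of detection. ENG, the endoglin co-receptor of endothelial cells, was at the floor on 22 of 24 arrays.

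LTBP1, which binds the latent complex and anchors it in the matrix, was at -1.05, -1.01 and -0.69 in PLC/PRF/5 and at -3.67, -3.21 and -3.44 in SNU-449 control cells. It was 5.74-fold higher in PLC/PRF/5 (2.52 ± 0.16, limma adjusted p = 2.56e-11). Its second probe was above background in PLC/PRF/5 control cells and on no SNU-449 control array, with a level at least 2.12-fold higher in PLC/PRF/5. This bound, and the next, were set in the same way.

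LTBP2, a matrix protein of the same family that is not known to bind latent TGFβ, was high in SNU-449 and at the floor in PLC/PRF/5 control cells. Its SNU-449 control values were 2.09, 2.28 and 2.40, with a mean of 2.26, and its signal was at least 75.3-fold higher than in PLC/PRF/5. The PLC/PRF/5 mean of -4.13 is the floor, to which all 3 control values were set. The limma adjusted p of 1.22e-22 thus rests on values without spread there and does not measure how PLC/PRF/5 cultures vary.

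**Figure D2:**
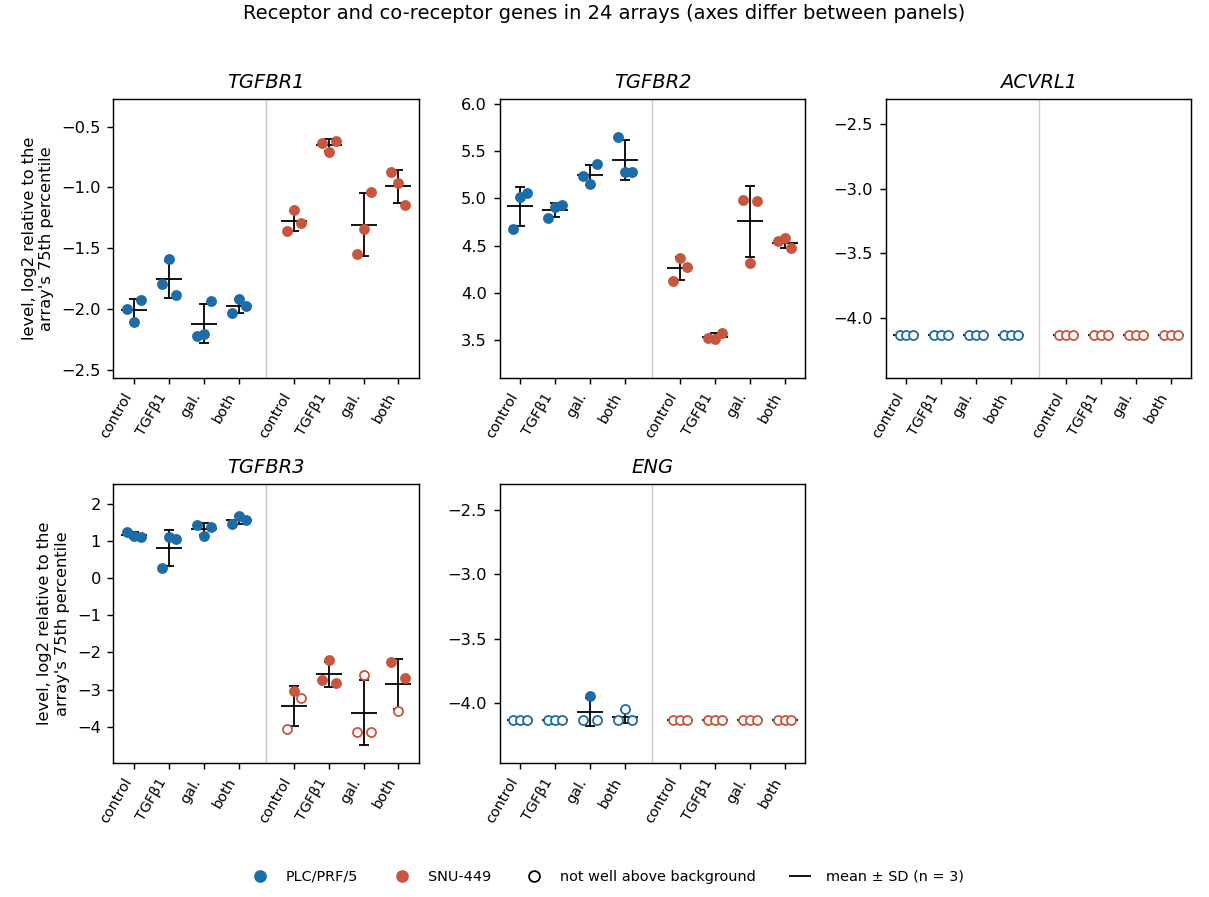
Levels of the signalling receptor and co-receptor genes on each of the 24 arrays (vertical axis, log2 relative to the array's 75th percentile; a separate scale in each panel); open points were not well above background, and bars give the mean ± SD of 3 cultures. TGFBR2 is lowest in SNU-449 with TGFβ1 (3.51 to 3.58), TGFBR1 is highest there (-0.71 to -0.62), TGFBR3 is measured throughout PLC/PRF/5, and ACVRL1 stays at the floor.

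Added TGFβ1 raised TGFB1 in both lines. In PLC/PRF/5, TGFB1 and LTBP1 rose (2 of 7 tested members, with none lower), where 13.5% of all genes passed and 6.31% were higher (46.7% of the passing genes, and 93.1% without scaling). In SNU-449, TGFB1, LTBP2 and TGFBR1 rose and TGFBR2 fell (4 of 8), where 10.3% of all genes passed, 5.62% higher and 4.67% lower (54.6% of the passing genes were higher, and 75.2% without scaling). Over the members the median log2 difference was 0.26 in PLC/PRF/5, and 0.61 in SNU-449, against -0.03 and 0.02 over all genes.

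TGFB1 in PLC/PRF/5 went from 0.83, 0.16 and 0.81 in control cells to 1.33, 1.32 and 1.38 with TGFβ1. Every treated culture was above every control culture, and the treated values were close together. The rise was 0.74 ± 0.15 (SE), or 1.67-fold (limma adjusted p = 0.0108), and 0.50, 1.16 and 0.57 within slides 1 to 3. It did not pass when the arrays of any replicate were left out (adjusted p = 0.0717, 0.0548 and 0.105 for replicates 1 to 3), at a rise of 0.53 to 0.86. With arrays scaled to their median, or by the methods' t-test after adjustment, neither TGFB1 nor LTBP1 passed in PLC/PRF/5.

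In SNU-449 the same gene went from 1.62, 1.58 and 1.62 to 2.97, 3.01 and 2.99. The groups did not overlap, and the rise of 1.38 was almost equal on the 3 slides (1.35, 1.42 and 1.37). Its SE of 0.35 (2.61-fold, limma adjusted p = 0.0320) was drawn from all 4 SNU-449 groups, of which the galunisertib group was widely spread (SD 0.94, against 0.02 for control). A fit of the 2 compared groups alone gave an adjusted p of 0.000333. Without the arrays of replicate 2 or 3 the rise was 1.36 and 1.39 and the adjusted p was 0.281 and 0.101, and the call was also lost without a filter on dim probes. The rise in SNU-449 was 0.64 ± 0.40 (SE) larger than in PLC/PRF/5, which did not pass (adjusted p = 0.395).

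TGFB2 and TGFB3 did not pass in either line. TGFB2 with TGFβ1 was at -2.28, -2.04 and -2.25 in PLC/PRF/5, a difference of 0.31 with a 95% interval from -0.05 to 0.66, and at 2.91, 2.86 and 2.96 in SNU-449, a difference of 0.16 with an interval from -0.09 to 0.41. Changes of TGFB2 by more than about these bounds were thus outside the intervals.

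TGFBR1 and TGFBR2 moved in opposite directions in SNU-449. TGFBR1 went from -1.36, -1.19 and -1.29 to -0.63, -0.71 and -0.62, a rise of 0.63 ± 0.13 (SE), or 1.54-fold (limma adjusted p = 0.0112). TGFBR2 went from 4.13, 4.37 and 4.28 to 3.53, 3.51 and 3.58, a fall to 1.65-fold lower (-0.72 ± 0.16, limma adjusted p = 0.0168). Neither pair of groups overlapped, and the sign was the same on all 3 slides (0.72, 0.48 and 0.68 for TGFBR1, and -0.60, -0.86 and -0.70 for TGFBR2). With arrays scaled to their median neither passed, without scaling TGFBR2 did not, nor did TGFBR1 without the arrays of any replicate, nor TGFBR2 without those of replicate 1 or 3.

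In PLC/PRF/5 with TGFβ1, TGFBR2 was at 4.79, 4.90 and 4.93, within the range of the control cells (-0.04 ± 0.13, adjusted p = 0.871). The difference between the lines in the TGFβ1 effect on TGFBR2 was -0.68 ± 0.21 (SE), just past the limit (limma adjusted p = 0.0484; 8.64% of all genes passed). It kept its direction and stayed past the limit in only 4 of 16 alternatives. With the replicate block the adjusted p was 0.0569, without the arrays of replicates 1 to 3 it was 0.166, 0.157 and 0.258, and over all alternatives it ran from 0.00813 to 0.552, so a difference between the lines is not firmly shown. TGFBR1 in PLC/PRF/5 was at -1.80, -1.59 and -1.89, a difference of 0.26 ± 0.10 that did not pass (adjusted p = 0.135), and its effect was not shown to differ between the lines (adjusted p = 0.195).

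TGFBR3 did not pass with TGFβ1 in either line. The treated values were 0.27, 1.13 and 1.06 in PLC/PRF/5, where the first culture was low, and -2.74, -2.20 and -2.83 in SNU-449, where all 3 treated arrays were well above background against 1 of 3 control arrays.

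LTBP1 in PLC/PRF/5 went from -1.05, -1.01 and -0.69 to -0.25, -0.34 and -0.17 with TGFβ1, without overlap, a rise of 0.67 ± 0.11 (SE), or 1.59-fold (limma adjusted p = 0.00365). Within slides it was 0.80, 0.67 and 0.53, and it did not pass without the arrays of replicate 1 or 2. The second LTBP1 probe was 0.50 ± 0.17 higher and did not pass in the fit over probes (adjusted p = 0.0946). In SNU-449 the values were -3.02, -2.90 and -2.60, a difference of 0.60 ± 0.19 that did not pass (adjusted p = 0.0733). The line difference of the effect was -0.07 ± 0.22.

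LTBP2 had the firmest response to TGFβ1 in SNU-449. It went from 2.09, 2.28 and 2.40 to 3.82, 3.68 and 3.75, 1.49 ± 0.10 (SE) higher, or 2.82-fold (limma adjusted p = 1.48e-05), and passed under every alternative tried. In PLC/PRF/5 it stayed near the floor (-4.13 to -3.99), and only 1 treated array was well above background. A change below the floor could not have been read there, so the lines cannot be compared in their LTBP2 response.

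**Figure D3:**
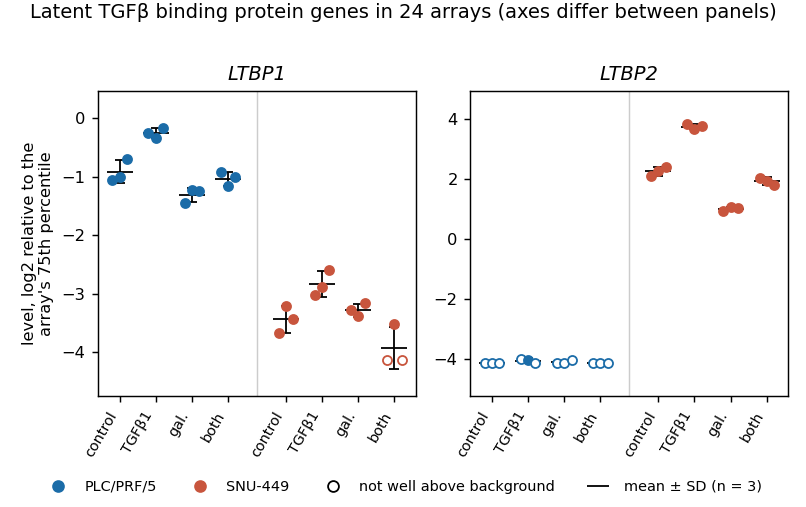
Levels of LTBP1 (first probe) and LTBP2 on each of the 24 arrays (vertical axis, log2 relative to the array's 75th percentile; a separate scale in each panel); open points were not well above background, and bars give the mean ± SD of 3 cultures. LTBP2 in SNU-449 runs from 0.95 with galunisertib to 3.82 with TGFβ1 and stays near -4.13 in PLC/PRF/5, while LTBP1 is higher in PLC/PRF/5.

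Galunisertib without added ligand was set against control to read which genes changed when no TGFβ1 was added. Whether a change came from signalling that the cells maintained by themselves, and through which of the inhibited receptors, was not tested. In PLC/PRF/5 none of the 7 tested members passed by limma, where 5.39% of all genes did (LTBP1, TGFBR2 and no other member had an unadjusted p under 0.05, at 0.00521 and 0.0252, and the methods' t-test gave 0 after adjustment). In SNU-449, TGFB1 and LTBP2 fell (2 of 8), where 7.33% of all genes passed and 2.03% were lower (72.3% of the passing genes were higher, and 29.3% without scaling). The median over members was 0.16 in PLC/PRF/5 and -0.02 in SNU-449, against 0.05 and 0.09 over all genes.

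LTBP2 in SNU-449 went from 2.09, 2.28 and 2.40 in control cells to 0.95, 1.07 and 1.04 with galunisertib. The groups were well apart, and the fall was alike on the slides (-1.14, -1.21 and -1.36). It was 2.36-fold lower (-1.24 ± 0.10, limma adjusted p = 0.000305) and passed under every alternative tried.

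TGFB1 in SNU-449 went from 1.62, 1.58 and 1.62 to 0.75, -0.35 and -1.12. All 3 cultures were below all control cultures, but they were spread over almost 2 log2 units, and the within-slide differences were -0.86, -1.93 and -2.74. The mean fall was -1.84 ± 0.35 (SE), or 3.59-fold (limma adjusted p = 0.0134). It did not pass without the arrays of replicate 2 or 3 (adjusted p = 0.156 and 0.140), nor in a fit of the 2 groups alone (adjusted p = 0.127), nor by the methods' t-test. The TGFB1 spot lies in row 4 of the array, near its edge, as do those of TGFBR3 (row 6) and TGFBR2 (column 162). Of the probes within 6 rows and columns of it, the 33 that were well above background on all arrays had a median difference of -0.07 in the same comparison, and their median deviations from the group mean on the 3 galunisertib arrays were 0.13, -0.12 and 0.08, against 0.99, -0.11 and -0.88 for TGFB1. The part of the spot's place in the TGFB1 spread was not tested further, nor was it for TGFBR2 and TGFBR3.

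In PLC/PRF/5 with galunisertib TGFB1 was at 0.98, 0.78 and 0.84, 0.26 ± 0.15 (SE) from control (adjusted p = 0.337). The galunisertib effect on TGFB1 differed between the lines by -2.11 ± 0.40 (limma adjusted p = 0.00302; 5.88% of all genes passed), and that call was lost without the arrays of replicate 2 or 3 (adjusted p = 0.146 and 0.0734) and with only the compared groups in the fit. TGFB2 in SNU-449 stayed at 2.90, 2.60 and 2.72, with a 95% interval of the difference from -0.26 to 0.24.

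TGFBR2 with galunisertib was at 5.23, 5.15 and 5.36 in PLC/PRF/5 and at 4.98, 4.32 and 4.97 in SNU-449. Neither difference passed (0.33, adjusted p = 0.150, and 0.50, adjusted p = 0.0873). LTBP1 in PLC/PRF/5 was at -1.46, -1.23 and -1.25, below all control cultures, a difference of -0.39 ± 0.11 that did not pass on its brighter probe (adjusted p = 0.0696). On the second probe, well above background on 2 of the 3 galunisertib arrays, the difference was -0.82 ± 0.17 and passed in the fit over probes (adjusted p = 0.0327), so the probes had the same direction and different calls.

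Galunisertib was also given together with TGFβ1, and the combination was set against TGFβ1 alone. This difference is the effect of the inhibitor in the presence of the ligand. It does not separate a loss of the response to the ligand from a loss of signalling present without it. Against TGFβ1 alone, TGFB1 and LTBP1 were lower and TGFBR2 and TGFBR3 higher in PLC/PRF/5 (4 of 7), where 39.1% of all genes passed, 25.8% higher and 13.2% lower. There 66.1% of the passing genes were higher, against 82.5% with arrays scaled to their median and 39.8% with the percentile taken over probes detected on all arrays, so the balance of directions turns with the scaling. In SNU-449, TGFB1, LTBP1 and LTBP2 were lower and TGFBR2 higher (4 of 8), where 16.9% passed, 9.56% higher and 7.3% lower. There 56.7% of the passing genes were higher, against 32.3% with arrays scaled to their median and 30.3% without scaling. These comparisons share the TGFβ1 arrays with those of TGFβ1 against control, so their values are given side by side and not as separate support.

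TGFB1 with the combination was at 0.74, 0.60 and 0.77 in PLC/PRF/5, 0.64 ± 0.15 (SE) lower than with TGFβ1 alone (-0.64, limma adjusted p = 0.00807) and within the range of the control cells. In SNU-449 it was at 1.63, 1.77 and 1.80, lower than with TGFβ1 alone (-1.25 ± 0.35, limma adjusted p = 0.0340), and all 3 values were just above the control values of 1.58 to 1.62.

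TGFBR2 with the combination was at 5.65, 5.28 and 5.28 in PLC/PRF/5 and at 4.55, 4.58 and 4.47 in SNU-449. It was higher than with TGFβ1 alone in PLC/PRF/5 (0.53 ± 0.13, limma adjusted p = 0.00783) and in SNU-449 (0.99 ± 0.16, or 1.99-fold, limma adjusted p = 0.00188). In both lines every combination culture was above every control culture. TGFBR3 in PLC/PRF/5 was at 1.48, 1.69 and 1.57, higher than with TGFβ1 alone (0.76 ± 0.19, limma adjusted p = 0.0101), a difference to which the low first TGFβ1 culture at 0.27 contributes, and which did not pass without the arrays of replicate 3.

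LTBP2 in SNU-449 with the combination was at 2.05, 1.95 and 1.79, below TGFβ1 alone by 1.82 on the log2 scale (-1.82 ± 0.10, or 3.54-fold, limma adjusted p = 2.62e-06) and below all control values. LTBP1 with the combination was at -0.93, -1.16 and -1.01 in PLC/PRF/5 (-0.78 ± 0.11 against TGFβ1 alone, limma adjusted p = 0.000441), with its second probe at -1.28 ± 0.17. In SNU-449, LTBP1 was at the floor on 2 of the 3 combination arrays, and 1 was well above background, so its level was at least 2.03-fold lower than with TGFβ1 alone (-1.09 ± 0.19 for the measured means, limma adjusted p = 0.00291). LTBP2 passed here under every alternative tried. Of the others, TGFB1 did not pass without the arrays of replicate 1 or 3 in PLC/PRF/5 and of 2 or 3 in SNU-449, TGFBR2 without those of 2 in PLC/PRF/5 and of 3 in SNU-449, and LTBP1 without those of 3 in SNU-449. Without scaling none of the 4 PLC/PRF/5 genes passed. With arrays scaled to their median TGFB1 in PLC/PRF/5 and TGFBR2 in SNU-449 did not, with quantile normalization TGFBR2 in PLC/PRF/5 did not, and without a filter on dim probes TGFB1 in SNU-449 did not. LTBP1 in SNU-449 was lost with normexp background correction and by the methods' t-test, which also lost TGFBR3 in PLC/PRF/5.

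**Figure D4:**
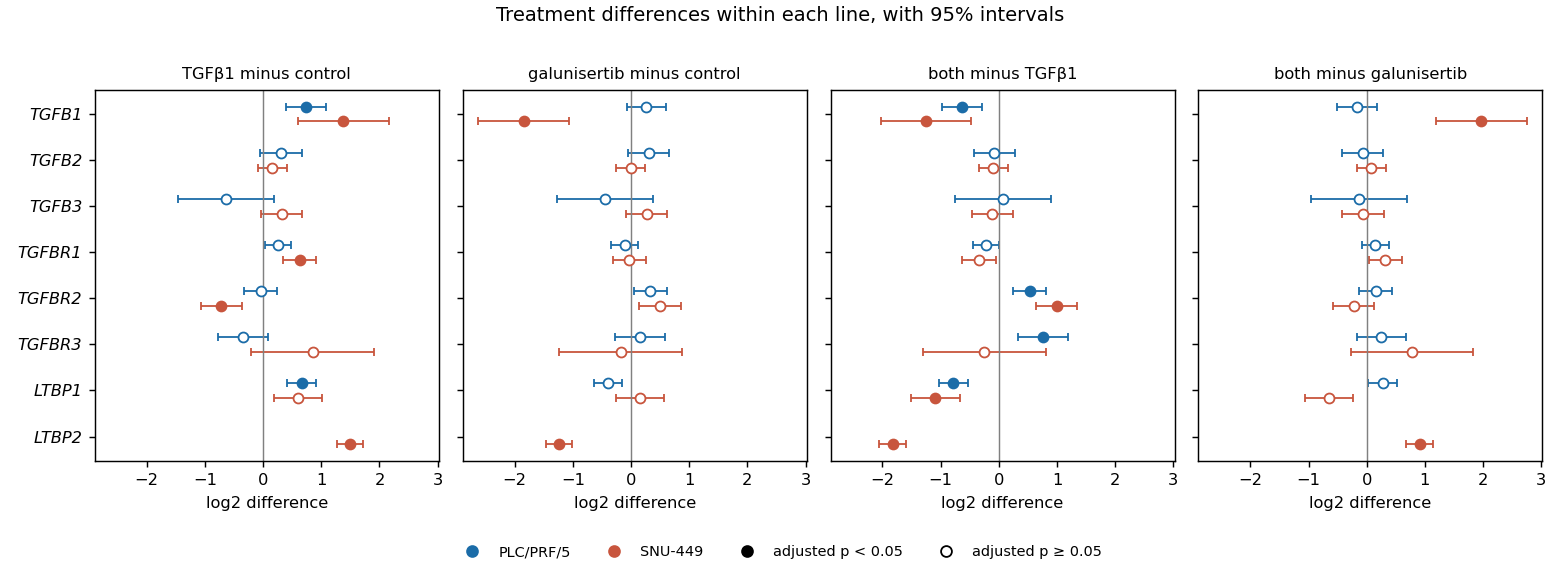
Log2 differences of the 8 tested genes in 4 comparisons within each line (horizontal axis), with 95% intervals; filled points passed an adjusted p of 0.05 (limma over all genes), open points did not. TGFB1 is to the right with TGFβ1 in both lines (0.74 and 1.38) and far to the left with galunisertib in SNU-449 only (-1.84, with 0.26 in PLC/PRF/5), and TGFBR2 is to the right in both lines when galunisertib is added to TGFβ1 (0.53 and 0.99).

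Whether TGFβ1 still acted in the presence of the inhibitor was read from the combination against galunisertib alone, a comparison added after the values were seen. In PLC/PRF/5 none of the 7 members passed by limma (LTBP1 alone had an unadjusted p under 0.05, at 0.0312, and the methods' t-test gave 0 after adjustment), where 8.37% of all genes did. In SNU-449, TGFB1 and LTBP2 were higher with the ligand (2 of 8), where 1.84% of all genes passed and 0.882% were higher (48.0% of the passing genes, and 60% with arrays scaled to their median). LTBP2 rose by 0.91 ± 0.10 (SE), or 1.88-fold (limma adjusted p = 0.00305), from 0.95, 1.07 and 1.04 to 2.05, 1.95 and 1.79. TGFB1 rose by 1.97 ± 0.35, or 3.93-fold (limma adjusted p = 0.0233), from its widely spread galunisertib values. Without the arrays of replicate 2 or 3, with arrays scaled to their median, with only the compared groups in the fit or by the methods' t-test, neither passed, TGFB1 did not pass without a filter on dim probes, and LTBP2 did not pass without those of replicate 1 either.

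The interaction, which asks whether the TGFβ1 effect differed with the inhibitor, passed for TGFB1 in PLC/PRF/5 (-0.90 ± 0.22, limma adjusted p = 0.0314; 8.85% of all genes passed). There TGFβ1 made a difference of 0.74 without and of -0.16 with galunisertib. The call was lost without the arrays of any replicate (adjusted p = 0.156, 0.127 and 0.168), with arrays scaled to their median, without scaling, with normexp and without a filter on dim probes. In SNU-449 the TGFB1 interaction was 0.59 ± 0.49 and did not pass (adjusted p = 0.561). LTBP1 passed there (-1.25 ± 0.27, limma adjusted p = 0.0399; 2.58% of all genes passed), with combination values at the floor, and was lost in 8 of 14 alternatives, among them the replicate block and each replicate left out.

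Other genes that store or release latent TGFβ were checked in a list of 15. In control cells 9 could be tested, of which 7 were higher in SNU-449 and 2 in PLC/PRF/5, with a median of -1.08 for PLC/PRF/5 minus SNU-449 against 0.06 over all genes. Over all genes 68.4% passed, 34.5% higher in SNU-449 and 33.9% in PLC/PRF/5. THBS1, the thrombospondin that can activate latent TGFβ, was lower in PLC/PRF/5 (a log2 difference of -5.75 ± 0.10). LRRC32, whose product GARP holds latent TGFβ at the cell surface, was well above background on no PLC/PRF/5 array and 8 SNU-449 arrays. ITGB6, a subunit of an integrin that frees TGFβ, was on 1 and 12 arrays, respectively. FURIN, the protease that cleaves the TGFβ precursor, was higher in PLC/PRF/5 (2.77 ± 0.12).

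With TGFβ1, 7 of the 9 rose in SNU-449 and 3 of 7 in PLC/PRF/5, with none lower, where 5.62% and 6.31% of all genes were higher. FURIN rose in both, by 1.77 ± 0.09 (PLC/PRF/5) and 1.99 ± 0.14 (SNU-449). LRRC32 (2.76 ± 0.31) and ITGB6 (1.22 ± 0.25) rose in SNU-449. With galunisertib alone 5 of 9 fell in SNU-449 (2.03% of all genes did), among them ITGB6 (-2.16 ± 0.25) and LRRC32, which was measured on each of the 3 control arrays and no galunisertib array and was at least 4.03-fold lower. FURIN (-0.38 ± 0.09) was the 1 of 7 that fell in PLC/PRF/5. Against TGFβ1 alone, the combination lowered 8 of 9 in SNU-449 (7.3% of all genes were lower), with FURIN at -2.25 ± 0.14, and 2 of 7 in PLC/PRF/5 (13.2%), with FURIN at -2.27 ± 0.09 (all by limma, adjusted over all genes).

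**Figure D5:**
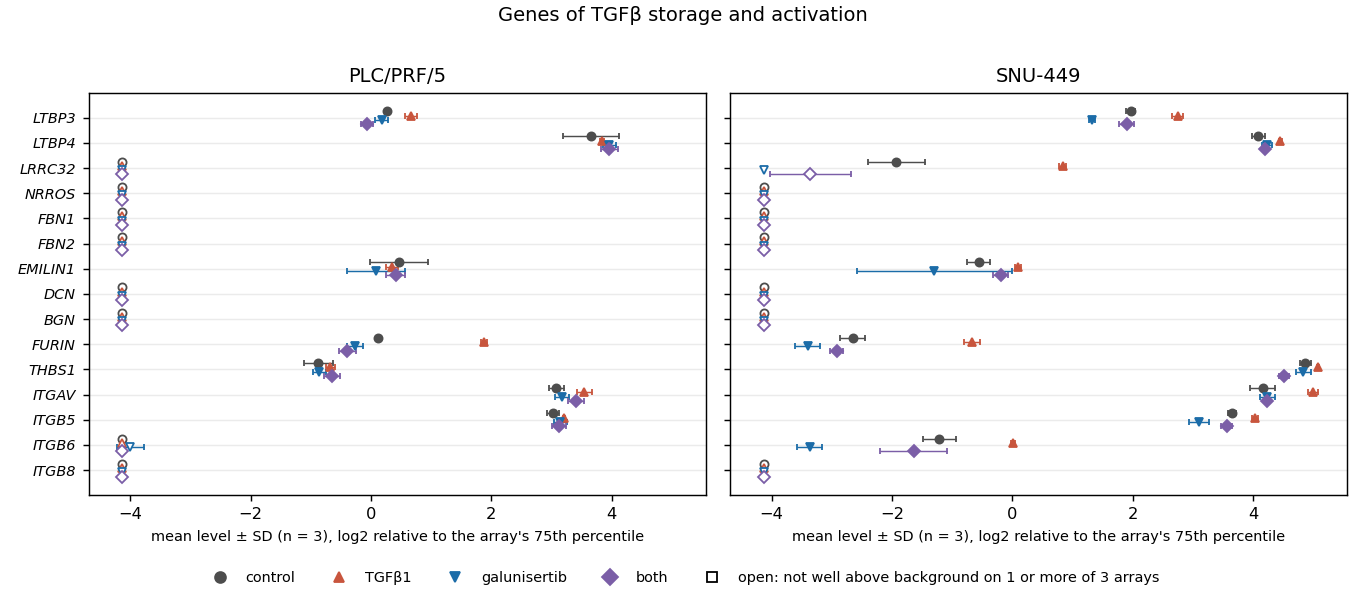
Mean levels ± SD (n = 3; horizontal axis, log2 relative to the array's 75th percentile) of the 15 listed genes of TGFβ storage and activation, by treatment, with a panel for each line; open symbols mark groups with at least 1 array not well above background, and levels of different genes are not comparable. LRRC32 and ITGB6 are measured in SNU-449 and near the floor in PLC/PRF/5, and FURIN is highest with TGFβ1 in each line.

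Of 9 other type I and type II receptors of the family, 6 could be tested between the lines, of which 3 were higher in PLC/PRF/5, 2 were lower there and the remaining gene did not pass, where 68.4% of all genes passed. BMPR2, the type II receptor for BMPs, was lower in PLC/PRF/5 (-3.41 ± 0.14) and rose with TGFβ1 in both lines (0.90 ± 0.14 and 1.24 ± 0.13 in PLC/PRF/5 and SNU-449). ACVR1B, the type I receptor for activin, was well above background on 11 PLC/PRF/5 and no SNU-449 arrays. All 3 SMADs that carry the receptor signal were higher in SNU-449 (SMAD2 -1.34 ± 0.15, SMAD3 -1.20 ± 0.07 and SMAD4 -1.70 ± 0.10, PLC/PRF/5 minus SNU-449), where 34.5% of all genes were higher in SNU-449.

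Among 17 genes that regulate the receptors, 16 could be tested between the lines, of which SNU-449 had 10 at the higher level and PLC/PRF/5 had 4 (34.5% and 33.9% of all genes). SMAD7, the inhibitory SMAD that brings ubiquitin ligases to TGFBR1, was lower in PLC/PRF/5 (-2.10 ± 0.12). TGFβ1 raised it in both lines (0.80 ± 0.11 in PLC/PRF/5 and 0.65 ± 0.13 in SNU-449), and galunisertib alone lowered it (log2 differences of -1.90 ± 0.13 in SNU-449, -0.44 ± 0.11 in PLC/PRF/5), a difference between lines of -1.46 ± 0.17 (limma adjusted p = 3.12e-05). In SNU-449 with TGFβ1, 5 of the 16 rose and 3 fell (5.62% and 4.67% of all genes), and in PLC/PRF/5 5 of 15 rose (6.31%).

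For the 3 members past the stricter limits within a line, the genes with the closest pattern were sought by Pearson's correlation over 8 group means, each line centred on its own mean, among 14882 genes (14883 for LTBP2). This is a description, over points that share slides. The closest of so many genes over so few points can reach a high r by selection alone. TGFB1 was closest to lnc-BNIP3-2 (r = 0.997), lnc-DBX1-1 (r = 0.988) and IL17REL (r = 0.986). LTBP2 was closest to PHF23 (r = 0.993), IFIH1 (r = 0.993) and NTN1 (r = 0.989), and LTBP1 to lnc-SUSD1-1 (r = 0.995), WNK1 (r = 0.993) and LINC00626 (r = 0.980).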

How the data were processed

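RNA of 24 cultures had been hybridised to single-colour Agilent arrays and read with Agilent Feature Extraction 10.7.3.1, per the labels. The deposited intensity is that software's processed signal, with background subtracted by the authors' scanner run; the authors' table of normalized log2 values was used only as an alternative. Each array was scaled to its 75th percentile, probes of the same sequence were averaged, and each gene was represented by its brightest probe among those that the scanner software marked well above background throughout 1 or more groups of the fit. Groups were compared with limma 3.58.1 in R 4.3.3, within a line (12 arrays) or over 24 arrays for comparisons between lines, on differences of log2 values with a floor of 5.70% of the percentile. The members, lists and tests were chosen with earlier results of these data known, and the named genes were the members, genes of the fixed lists past the limits, and the 3 closest genes of each strongly changed member. Replicate numbers, which are also slides, paired TGFβ1 and control samples (r = 0.15 to 0.24 in PLC/PRF/5 and 0.10 to 0.19 in SNU-449 over genes) and not every other pair of groups. The scripts were tested on simulated data. Files held no mean spot signal, so the normexp alternative (offset 50) used the median spot signal. The number of arrays limits the precision.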

Additional observations from a re-analysis of the deposited data

Results flagged for a closer look

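A test of the difference between the lines in the response to a treatment passed for TGFB1 with galunisertib and for TGFBR2 with TGFβ1. Neither call held under all alternatives, and for TGFBR2 a difference between the lines is not firmly shown. The galunisertib effect on TGFB1 was -2.11 on the log2 scale (SNU-449 minus PLC/PRF/5, SE 0.40, limma adjusted p = 0.00302), with all 3 SNU-449 cultures below their controls and the PLC/PRF/5 cultures at 0.78 to 0.98 against 0.16 to 0.83 in theirs. The TGFβ1 effect on TGFBR2 was -0.68 (SE 0.21, limma adjusted p = 0.0484), with a fall on 3 of 3 slides in SNU-449 and on 2 of 3 in PLC/PRF/5. The TGFBR2 call was lost in 12 of 16 alternatives, among them the replicate block (adjusted p = 0.0569) and each replicate left out, and the TGFB1 call in 3 of 16. For LTBP2 the fitted values of the same contrast were 1.41 with TGFβ1 and -1.27 with galunisertib, but in PLC/PRF/5 the gene was well above background on no control or galunisertib array and on 1 TGFβ1 array. A fall could not have been read there, nor a rise below the floor. These values thus reflect the SNU-449 change and cannot tell whether the lines differ in their LTBP2 response. Groups of 3 were not searched for single outlying samples.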

How the results depend on the processing

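Over 518 recomputed differences of 32 gene results, 417 stayed past the limit with the same direction, 101 kept the direction but did not pass, and 0 reversed. These cover the members only, and the calls of the other listed genes were not put through the alternatives. The number of members passing moved by more than 1.5 times in the following cases. With the 75th percentile over always-detected probes, galunisertib in PLC/PRF/5 gave 1 (0 as reported) and the SNU-449 interaction 0 (1). With arrays scaled to their median, TGFβ1 gave 0 in PLC/PRF/5 (2) and 2 in SNU-449 (4), the PLC/PRF/5 interaction 0 (1), the line difference of the TGFβ1 effect 1 (2), and the combination against galunisertib in SNU-449 0 (2). Without scaling, the combination against TGFβ1 in PLC/PRF/5 gave 0 (4), each interaction 0 (1) and the TGFβ1 line difference 1 (2). With normexp, the PLC/PRF/5 interaction gave 0, the TGFβ1 line difference 1 and the combination against galunisertib in PLC/PRF/5 1 (0). With the authors' normalized values, the line differences gave 0 for TGFβ1 and 1 for galunisertib (2 each), with a lower floor 1 each. Without a filter on dim probes, each interaction gave 0, and the TGFβ1 line difference and the combination against galunisertib in SNU-449 1. With probes measured on every array, the basal comparison gave 5 (8, since LTBP1, LTBP2 and TGFBR3 were then not tested), the SNU-449 interaction 0, and the line differences 0 for TGFβ1 and 1 for galunisertib. With the mean of a gene's probes, galunisertib in PLC/PRF/5 gave 1. With only the compared groups in the fit, galunisertib in SNU-449 and its line difference gave 1, and the combination against galunisertib in SNU-449 0. The ordinary t-test, without a random variance model, was also adjusted by Benjamini-Hochberg. It then gave 0 for TGFβ1 in PLC/PRF/5, 1 for galunisertib in SNU-449 and 0 for the combination against galunisertib there. At a fold above 2 and an unadjusted P under 0.001 it gave 4 members in the basal comparison. It gave 2 each for TGFβ1 and for the combination against TGFβ1 in SNU-449, 1 for galunisertib in SNU-449, and 0 otherwise.

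With the replicate block, the SNU-449 interaction gave 0 (LTBP1 lost) and the TGFβ1 line difference 1 (TGFBR2 lost), and no other call of a member was lost. When the arrays of each replicate number were left out in turn, the count ran from 6 to 8 in the basal comparison, 0 to 1 for TGFβ1 in PLC/PRF/5 and 1 to 2 in SNU-449, 1 to 2 for galunisertib in SNU-449, 2 to 3 for the combination against TGFβ1 in PLC/PRF/5 and 1 to 4 in SNU-449, 0 to 1 for the combination against galunisertib in SNU-449, 1 to 1 for the TGFβ1 line difference and 1 to 2 for that of galunisertib, with 0 to 0 for each interaction. Leaving out the first PLC/PRF/5 control array, chosen after its TGFB3 value was seen, gave 1 for the TGFβ1 line difference. Scaling to the array median moved the median difference of all genes by -0.34 in the basal comparison, by 0.17 and -0.16 for the combination against TGFβ1 in PLC/PRF/5 and SNU-449, and by -0.22 in the SNU-449 interaction. Without scaling it moved by 0.25 and 0.13 for TGFβ1 in PLC/PRF/5 and SNU-449, and by -0.12 for galunisertib and -0.18 for the combination against TGFβ1 in SNU-449. Dim probes limit TGFBR3, LTBP1 and LTBP2 in the line where they lie near the floor.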
